A study of Mus musculus with 6 samples.

Results

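The 10 genes described here encode transcription factors, several of them immediate-early. They are the JUN proteins (Jun, Junb, Jund) and the FOS proteins (Fos, Fosb, Fosl1, Fosl2). The others are the related leucine zipper factors Atf3 and Maff and the zinc finger factor Egr1. The genes were taken from the count files by gene symbol, and all 10 were found among the 46603 genes of the count files. The libraries came from cultured enteric glial cells (EGCs), which support the neurons of the gut, grown from neurospheres of whole intestine of C57BL/6J mouse embryos (E14.5). There were 3 control cultures without treatment and 3 cultures given lipopolysaccharide (LPS, a component of the bacterial cell wall) at 100 ng/ml for 12 h. All 6 cultures shared the strain, the neurosphere step with EGF and FGF, and growth in serum before RNA was taken, and the labels did not say whether replicates came from separate embryos or litters, so p-values measure the spread between these cultures only.

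AP-1 is a dimer of basic leucine zipper (bZIP) proteins. A JUN protein can pair with itself or with a FOS protein, whereas FOS proteins need a JUN partner. ATF3 pairs with JUN proteins and often represses transcription, and small MAF proteins such as MAFF lack an activation domain of their own. Immediate-early genes respond to growth factors, stress and Toll-like receptor signals through MAP kinases without new protein synthesis, and the transcripts of several of them, Fos and Egr1 above all, appear and decay within hours. These libraries hold the 12 h time point alone. EGR1 is induced by the same signals and is held in check by the NAB corepressors.

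Library totals ran from 18775316 to 23664312 counts. Values below are CPM, counts scaled to library sizes that were corrected by trimmed mean of M-values (TMM). A call means an adjusted p under 0.05 in the edgeR quasi-likelihood test over 15226 genes. The cultures were mixed. The glial gene Sox10 was present, and so were macrophage markers, whose 12 genes summed to 3805, 4860 and 11329 CPM in control replicates 1, 2 and 3 and to 3979, 5161 and 19024 CPM in LPS replicates 1, 2 and 3. None of these 12 was at 0 in all libraries, and 11 had more than 3 counts in each library. Smooth muscle markers moved with the treatment in every culture. They summed to 2516, 2523 and 2290 CPM in control replicates 1, 2 and 3 and to 911.4, 891.4 and 640.4 CPM in LPS replicates 1, 2 and 3, and all 7 tested of the 8 (Acta2, Actg2, Myh11, Cnn1, Tagln, Des and Lmod1) were called lower without overlap, with a median log2 fold change of -1.85. Marker sums lay between 623.6 and 843.5 CPM for glia, 258.6 and 466.5 CPM for enteric neurons and 15123 and 16295 CPM for mesenchymal cells over the 6 libraries, and the groups overlapped in each. Endothelial markers summed to 27.8, 37.1 and 74.4 CPM in control and to 15.5, 18.4 and 29.6 CPM in LPS, lower within every replicate number. This fall was not shared by all of them: log2 fold changes of the 4 tested ran from -1.93 to 1.80, with a median of 0.26. Of 8 enteric neuron markers, 1 was called lower. Single markers called in the other lists were S100b (1 of 7 glial) and Vwf (1 of 4 endothelial), both lower, and Dcn and Pdgfra (2 of 8 mesenchymal) and Adgre1 (1 of 12 macrophage), all higher. Markers that were not called went both ways. Log2 fold changes ran from -3.08 to 3.15 over the 12 macrophage markers (median 0.68). Over the 8 mesenchymal markers they ran from -1.09 to 0.90 (median -0.14). The part of these cell types in the results below was not tested. In such bulk samples a change in the number of a cell type and a change in RNA per cell cannot be told apart.

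All 10 genes passed the count filter. With LPS, 4 of the 10 were called higher (Fosl1, Maff, Junb and Fosl2), 1 was called lower (Atf3) and 5 were not called (Fos, Fosb, Jun, Jund and Egr1). Among all genes tested, 15.8% were called, 9.09% higher and 6.71% lower. The median log2 fold change of the 10 was 0.16, against -0.02 over all genes tested. The 3 control values did not overlap the 3 LPS values for the same 5 genes, a separation seen in 38.7% of all genes tested (19.3% with LPS above and 19.4% with LPS below). The calls were of unequal standing. Junb and Atf3 were called in all 14 alternative analyses, whereas Fosl1 and Maff were called in 8 of 14 and Fosl2 in 5 of 14. The limma-voom test called 1 of the 10 higher (Junb) and 1 lower (Atf3), against 8.21% and 6.05% of all genes.

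**Figure D1:**
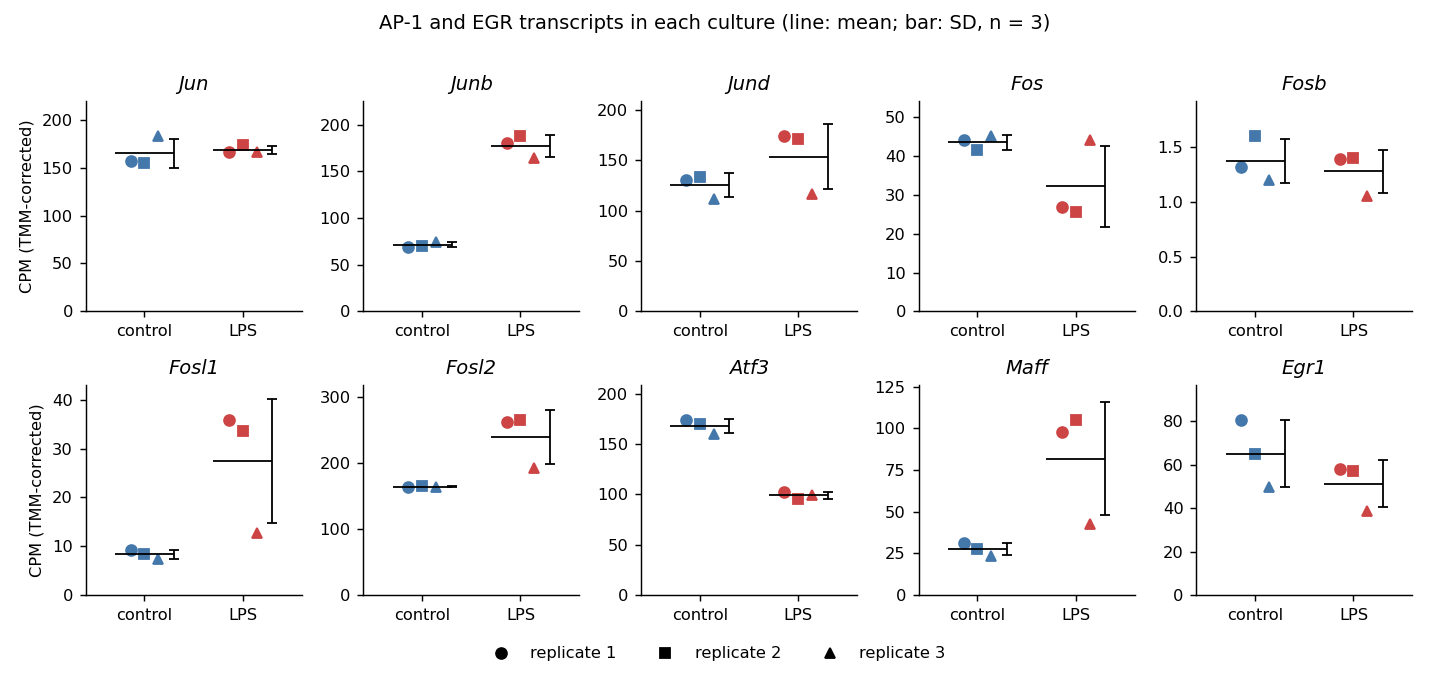
CPM on TMM-corrected library sizes (vertical axes, linear from 0) of each gene in the 3 control (blue) and 3 LPS (red) cultures, with marker shape for the replicate number, a line for the mean and a bar for the SD (n = 3). Junb and Atf3 separate the groups tightly, while LPS replicate 3 (triangle) sits close to the controls for Fos, Fosl1, Fosl2, Jund and Maff.

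Among the JUN genes, Junb rose. JUNB is a JUN protein that activates transcription less strongly than JUN at many sites and is induced in macrophages by LPS. Its gene (ENSMUSG00000052837) lies on chromosome 8 at 84974484 to 84978718 (GRCm38, minus strand). Junb was at 69.3, 70.6 and 74.7 CPM in control replicates 1, 2 and 3 and at 180.5, 187.6 and 164.5 CPM in LPS replicates 1, 2 and 3. Every LPS culture was more than 2-fold above every control. Its log2 fold change was 1.31 (SE 0.08, edgeR adjusted p = 0.000634), which is 2.48-fold. Leaving out single libraries moved it only from 1.27 to 1.36. On the other strand, 173 bases of the exons of Junb are shared with exons of Prdx2, which was at 206.6 and 249.5 CPM on average in control and LPS (log2 fold change 0.27, edgeR adjusted p = 0.0543). The strand setting of the counting was not stated.

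Jun (chromosome 4, 95049034 to 95052222, minus strand, ENSMUSG00000052684), the founding AP-1 subunit, was not called. It was at 157.2, 154.5 and 182.6 CPM in control and at 166.1, 173.0 and 165.9 CPM in LPS. The groups overlapped, with control replicate 3 the highest of all 6 libraries. Jun had a log2 fold change of 0.03 (95% confidence interval -0.19 to 0.25, edgeR adjusted p = 0.846), so a rise of the size seen for Junb lay outside the interval. Its sign turned with the scaling, to -0.07 when upper-quartile factors were used and to -0.12 without factors. An antisense gene, Junos, shares 232 bases of exon with Jun and averaged 1.23 CPM in control and 2.56 CPM in LPS.

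Jund (chromosome 8, 70698949 to 70700616, plus strand, ENSMUSG00000071076) encodes the JUN protein that is commonly present in resting cells. It was at 130.6, 133.7 and 111.9 CPM in control and at 173.6, 170.7 and 116.5 CPM in LPS. Replicates 1 and 2 were above all controls, and LPS replicate 3 lay within the control range. With all libraries the log2 fold change was 0.29 (95% confidence interval -0.13 to 0.72, edgeR adjusted p = 0.305), and without LPS replicate 3 it was 0.46 (edgeR adjusted p = 0.0292). The antisense gene Gm11175 shares 877 bases of exon with Jund and lay between 0.909 and 2.37 CPM in the 6 libraries.

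Of the FOS genes, Fosl1 and Fosl2 rose, and Fos and Fosb were not called. Fosl1 (chromosome 19, 5447547 to 5455946, plus strand, ENSMUSG00000024912) encodes FRA-1, a FOS protein without the strong activation domain of FOS that is often induced late and for longer. It was at 9.24, 8.41 and 7.40 CPM in control and at 35.9, 33.6 and 12.8 CPM in LPS. LPS replicates 1 and 2 were close to each other, and LPS replicate 3 was nearer to the controls. Fosl1 rose by a log2 fold change of 1.71 (SE 0.40, edgeR adjusted p = 0.0389), which is 3.28-fold. Without LPS replicate 3 it was 2.05 (edgeR adjusted p = 0.000714). Without any other single library the call was lost, with edgeR adjusted p from 0.0897 to 0.144. The gene overlaps Ccdc85b on the other strand by 1163 bases of exon out of 2033, and Ccdc85b, at 14.3 and 10.4 CPM on average in control and LPS, was not called (log2 fold change -0.46, edgeR adjusted p = 0.0843).

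Fosl2 (chromosome 5, 32135801 to 32157842, plus strand, ENSMUSG00000029135) encodes FRA-2, the other late FOS protein. It was at 163.1, 164.8 and 164.2 CPM in control and at 261.4, 264.9 and 192.5 CPM in LPS. The controls lay within 2 CPM of each other, and all LPS cultures were above them. The increase was 0.55 on the log2 scale (SE 0.14, edgeR adjusted p = 0.0472), or 1.46-fold, the smallest of the 4 increases. This call was lost with upper-quartile factors (0.45, edgeR adjusted p = 0.102), with library size alone (0.40, edgeR adjusted p = 0.119), with no filter on low counts, with limma-voom and without any single library other than LPS replicate 3.

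Fos (chromosome 12, 85473890 to 85477273, plus strand, ENSMUSG00000021250), the classical immediate-early gene, was at 43.9, 41.3 and 45.0 CPM in control and at 26.7, 25.5 and 44.1 CPM in LPS. Replicates 1 and 2 of LPS were below all controls, and LPS replicate 3 was within the control range. With all libraries Fos was not called (log2 fold change -0.44, 95% confidence interval -0.98 to 0.11, edgeR adjusted p = 0.240). Without LPS replicate 3 it was lower (-0.73, edgeR adjusted p = 0.00434), so that this 1 library decided the call.

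Fosb (chromosome 7, 19302696 to 19310051, minus strand, ENSMUSG00000003545) was the rarest of the 10, with 20 to 36 counts per library. It was at 1.31, 1.59 and 1.2 CPM in control and at 1.38, 1.39 and 1.05 CPM in LPS, and the groups overlapped. The log2 fold change was -0.10 (95% confidence interval -0.69 to 0.49, edgeR adjusted p = 0.813). The short isoform ΔFosB cannot be told apart from full-length Fosb in counts per gene.

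Atf3 was the 1 gene of the 10 that fell. ATF3 is a stress-induced member of the ATF/CREB family, known in macrophages as a brake on Toll-like receptor target genes. The gene (ENSMUSG00000026628) spans 191170296 to 191218039 on chromosome 1, minus strand. Atf3 was at 173.8, 170.2 and 159.5 CPM in control and at 102.1, 95.3 and 99.5 CPM in LPS. Both groups were tight and far apart. Atf3 fell, with a log2 fold change of -0.76 (SE 0.07, edgeR adjusted p = 0.00259), a level 1.70-fold lower in LPS. Over the 14 alternatives it ran from -0.92 to -0.73, with edgeR adjusted p up to 0.0257 when single libraries were left out. An annotated small RNA gene within the Atf3 locus had no counts in these libraries and shares no exon with it.

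Maff (chromosome 15, 79346621 to 79359076, plus strand, ENSMUSG00000042622) encodes a small MAF protein that pairs with other bZIP factors such as NRF2 and BACH1. It was at 31.0, 27.5 and 23.8 CPM in control and at 97.9, 105.1 and 42.8 CPM in LPS. All LPS cultures exceeded the controls, LPS replicate 3 by the least. Maff rose by a log2 fold change of 1.58 (SE 0.35, edgeR adjusted p = 0.0348), which is 2.99-fold, and without LPS replicate 3 it was 1.89 (edgeR adjusted p = 0.000992). Like Fosl1, it lost its call with limma-voom (1.48, limma adjusted p = 0.0542) and without any single library other than LPS replicate 3 (edgeR adjusted p from 0.0808 to 0.136).

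Egr1 (chromosome 18, 34859823 to 34864984, plus strand, ENSMUSG00000038418) was at 80.6, 65.1 and 49.9 CPM in control and at 58.3, 57.2 and 38.7 CPM in LPS. The groups overlapped, and replicate 3 was the lowest of each group. The log2 fold change was -0.34 (95% confidence interval -0.91 to 0.22, edgeR adjusted p = 0.362). Within each replicate number the LPS culture was below its control, with log2 ratios of -0.47, -0.19 and -0.37 in replicates 1, 2 and 3. With the replicate number as a block, Egr1 was called lower (-0.34, edgeR adjusted p = 0.0344), in a fit that called 14.9% of all genes lower and 15.4% higher. The block changed no other call among the 10.

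**Figure D2:**
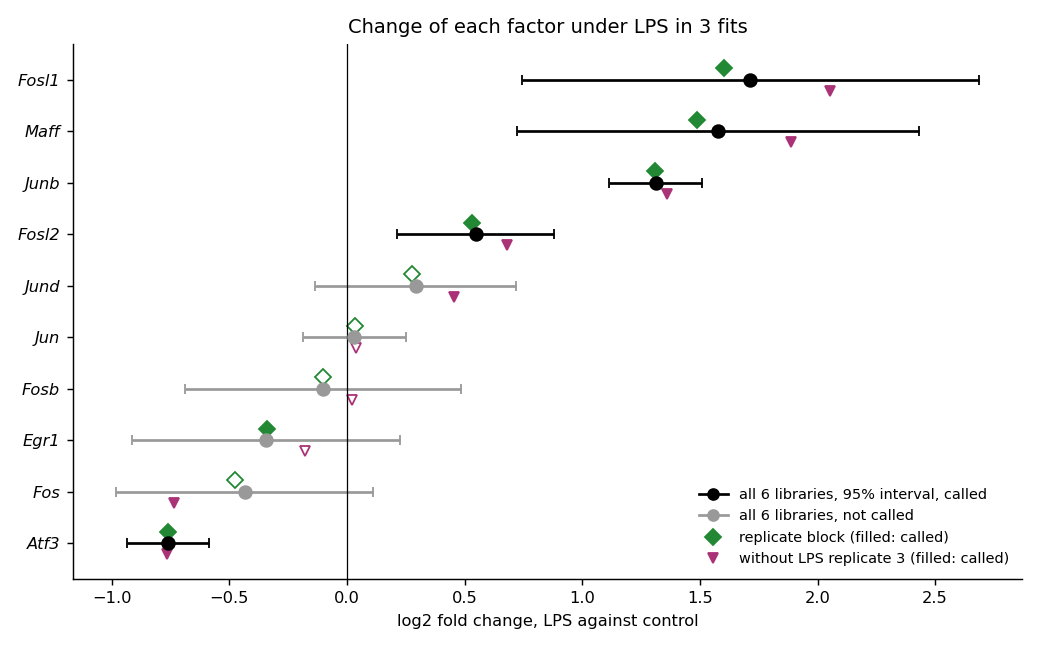
Log2 fold change of LPS against control (horizontal axis) for each of the 10 genes, as circles with 95% confidence intervals from all 6 libraries (black where called, grey where not), diamonds with the replicate number as a block and triangles without LPS replicate 3, filled where called. Junb (1.31) and Atf3 (-0.76) hold the same place in all 3 fits, and Fos and Jund are called only without LPS replicate 3.

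LPS replicate 3 thus differed from the other LPS cultures in most of these genes, and the size of the gap was unequal. Taking the mean of LPS replicates 1 and 2 as the full distance from the control mean, LPS replicate 3 covered 98.9% of it for Atf3 and 82.6% for Junb. It covered 28.7% for Fosl2, 20.7% for Maff and 16.8% for Fosl1. For Fos (-3.78%) and Jund (-19.0%) it lay on the far side of the control mean, and for Egr1 it lay below both other LPS cultures, farther from the control mean than they were. The same library held the highest sum of macrophage markers, 19024 CPM, and the lowest of smooth muscle markers, 640.4 CPM. Control replicate 3 had the highest macrophage sum among controls, 11329 CPM, and was the lowest control for Fosl1, Maff, Jund, Fosb, Atf3 and Egr1, the highest for Fos, Jun and Junb and the middle one for Fosl2. The part of cell makeup in these differences was not tested. Without LPS replicate 3, edgeR called 5 of the 10 genes higher and 2 lower, against 12.6% and 9.13% of all genes tested. Without any other single library it called 1 higher, Junb, and 1 lower, Atf3, against backgrounds that differed by library. Without control replicates 1, 2 and 3 and LPS replicates 1 and 2 in turn, 3.03%, 2.44%, 7.52%, 3.98% and 3.36% of all genes were called higher and 1.25%, 0.720%, 6.66%, 1.44% and 1.04% lower.

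**Figure D3:**
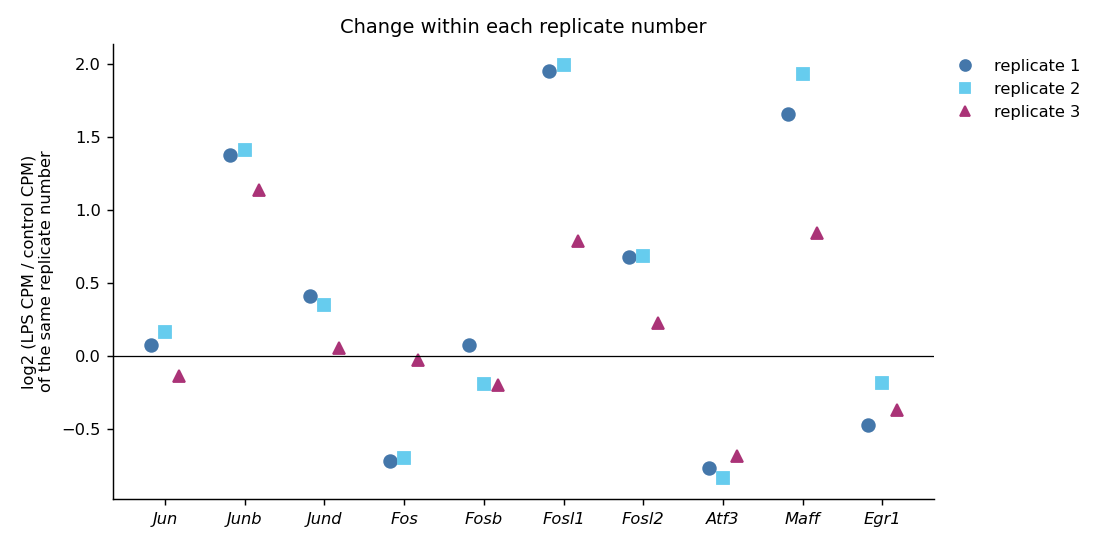
Log2 ratio of LPS to control CPM (vertical axis) between cultures with the same replicate number, for each gene, with 1 marker per replicate number. Junb is between 1.14 and 1.41 and Atf3 between -0.84 and -0.68 in all 3, while Fosl1 is at 1.96, 2.0 and 0.79.

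Levels of different genes were compared per kilobase of exon. In control, Atf3 (77.9 ± 3.44 CPM per kb, SD, n = 3) and Jund (75.2 ± 7.07) led and overlapped each other. Jun (51.7 ± 4.86), Junb (31.1 ± 1.22), Fos (18.5 ± 0.793) and Fosl2 (16.9 ± 0.0926) followed, each without overlap with the next above. Egr1 (14.5 ± 3.43) overlapped both Fosl2 and Maff (10.6 ± 1.40), and Fosl1 (4.11 ± 0.453) and Fosb (0.219 ± 0.0326) came last. In LPS the order was Jund (92.1 ± 19.3 CPM per kb), Junb (77.1 ± 5.15), Jun (52.8 ± 1.27) and Atf3 (46.0 ± 1.60), with overlap only between Jund and Junb. Atf3 thus stood first of the 10 at rest and in place 4 with LPS, and Junb moved from place 4 to place 2.

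The makeup of the JUN and FOS transcript pools was then given as shares of each family's summed CPM per kb. Junb made up 19.1%, 19.3% and 20.7% of JUN transcripts in control and 33.4%, 34.2% and 37.0% in LPS, with no overlap. Jun went from 32.7% ± 3.31 to 24.0% ± 2.56 and Jund from 47.6% ± 4.17 to 41.2% ± 4.41 (SD, n = 3 each). By replicate number, the Jund share was 49.6%, 50.3% and 42.8% in control and 44.4%, 43.0% and 36.1% in LPS, lower with LPS within every replicate number although the groups overlapped. For Junb and Jun the exact two-sided permutation p was 0.10, the smallest that 3 against 3 allows, and for Jund it was 0.30. This test did not use the replicate numbers. Within a library, Junb per kb was 0.611, 0.633 and 0.567 times Jun in control and 1.51, 1.50 and 1.37 times Jun in LPS. Per kilobase, the order of these 2 transcripts was thus the opposite in every LPS culture. It depended on exon length: in CPM, LPS replicate 3 had Junb at 164.5, below Jun at 165.9. LPS replicates 1 and 2 had Junb at 180.5 and 187.6 CPM, above Jun at 166.1 and 173.0 CPM. The FOS pool was smaller, at 39.7 ± 0.661 CPM per kb in control and 52.1 ± 6.11 in LPS, against 157.9 ± 1.25 and 222.0 ± 24.9 for the JUN pool (SD, n = 3 each). Fos made up 46.4%, 45.1% and 47.9% of it in control and 20.2%, 19.7% and 41.6% in LPS. Fosl1 went from 11.3%, 10.6% and 9.12% to 31.4%, 30.1% and 13.9%, and Fosl2 from 42.7% ± 0.930 to 47.3% ± 2.90 (SD, n = 3 each). LPS replicate 3 again stood between the controls and the other LPS cultures. All 3 exact permutation p-values were 0.10, which this design cannot go below. The size of the shift depended on exon length and on replicate 3. By count instead of per kilobase, the difference in the Fos share was -8.77 percentage points instead of -19.3 and that in the Fosl1 share 4.97 instead of 14.8, and per kilobase without replicate 3 the Fos share differed by -25.8.

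**Figure D4:**
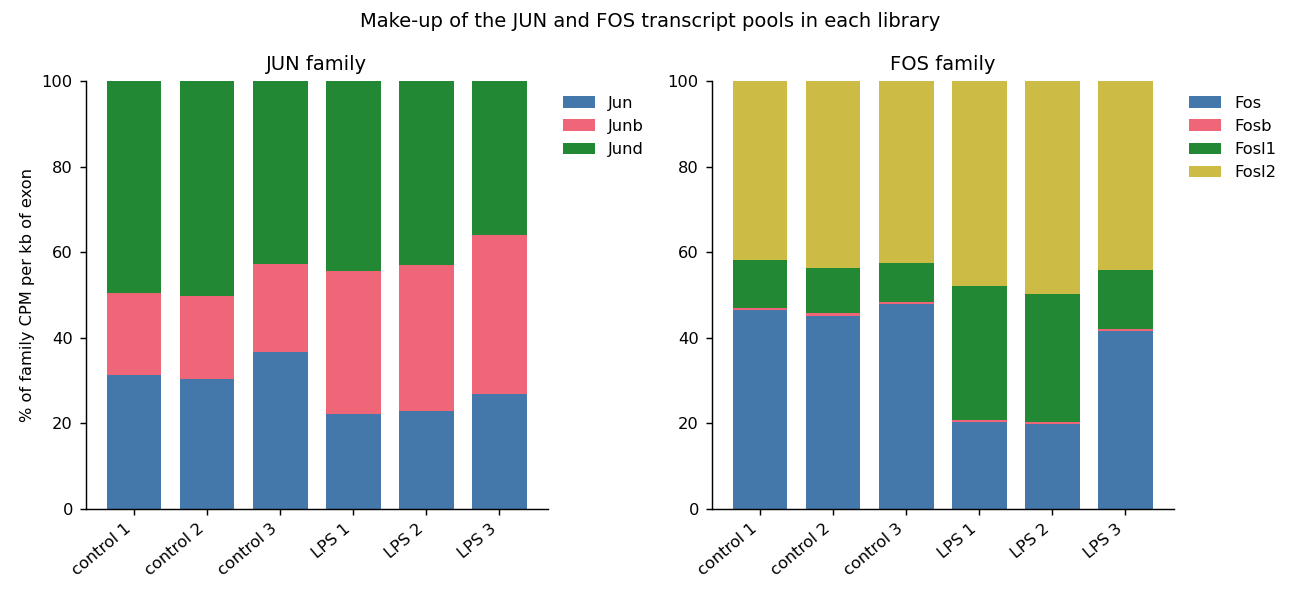
Share of each gene in the summed CPM per kilobase of exon (vertical axis, percent) of the JUN family (left) and the FOS family (right), with 1 stacked bar per library. The Junb share is 19.1% to 20.7% in controls and 33.4% to 37.0% in LPS, and the Fos share drops to about 20% in LPS replicates 1 and 2 but not in LPS replicate 3.

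Promoter sequence was read for the genes from RefSeq (GRCm38.p6), 250 bases up to the start site on the gene's strand. Of the 10 genes, 8 matched the table, and Fosl1 and Egr1 did not. Shown are Junb and Atf3, which were called in every alternative, and Jun and Maff, each with a CRE-type match in a window. The windows were searched on both strands for 7 motifs: the AP-1 site TGACTCA, the CRE TGACGTCA, its variant TGACATCA, the EGR site GCGGGGGCG, an NF-κB site, TTCCNGGAA as a STAT site, and the CArG box of serum response factor. No match overlapped another. Capitals mark a match.
Junb, chr8:84978749-84978998, minus strand: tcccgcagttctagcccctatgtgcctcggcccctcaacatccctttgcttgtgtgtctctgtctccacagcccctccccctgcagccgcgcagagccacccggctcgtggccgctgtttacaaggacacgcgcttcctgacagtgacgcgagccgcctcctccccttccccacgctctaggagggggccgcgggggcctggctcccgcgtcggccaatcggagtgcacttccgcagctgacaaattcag
Jun, chr4:95052223-95052472, minus strand: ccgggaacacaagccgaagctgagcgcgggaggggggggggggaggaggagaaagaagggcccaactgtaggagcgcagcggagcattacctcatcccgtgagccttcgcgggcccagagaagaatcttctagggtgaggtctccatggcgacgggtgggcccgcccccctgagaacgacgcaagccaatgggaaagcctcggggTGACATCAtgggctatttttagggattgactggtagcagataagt
Atf3, chr1:191183334-191183583, minus strand: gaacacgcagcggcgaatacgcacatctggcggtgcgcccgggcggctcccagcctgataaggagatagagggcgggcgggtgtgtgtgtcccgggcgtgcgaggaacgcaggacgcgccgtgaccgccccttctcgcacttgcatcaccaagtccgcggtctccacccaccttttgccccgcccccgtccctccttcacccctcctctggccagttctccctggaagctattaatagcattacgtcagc
Maff, chr15:79347270-79347519, plus strand: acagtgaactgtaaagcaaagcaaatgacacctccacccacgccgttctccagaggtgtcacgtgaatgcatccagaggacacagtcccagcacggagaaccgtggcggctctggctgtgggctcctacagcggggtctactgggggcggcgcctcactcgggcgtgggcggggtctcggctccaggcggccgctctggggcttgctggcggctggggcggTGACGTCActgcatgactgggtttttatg
The Jun window held TGACATCA at -45 to -38 from the start, and the Maff window shown held TGACGTCA at -29 to -22. A further Maff start, with its window at chr15:79348152-79348401, held TGACATCA at -45 to -38, the same place as in Jun. The Maff window that ends at the gene start in GENCODE, chr15:79346371-79346620, held none of the 7 motifs. TGACATCA is found in 2.93% and TGACGTCA in 1.55% of the 32851 promoter windows of this length. The EGR site was found at -79 to -71 of Fosl2 and at -50 to -42 of Fosb, and in 2.57% of all windows. None of the 7 motifs was in the Junb, Atf3, Fos and Jund windows, and the remaining motifs, in no window of the 8 genes, occur in 4.46% (AP-1 site), 1.41% (NF-κB site), 1.47% (CArG box) and 0.913% (TTCCNGGAA) of windows. The Jund window belongs to a start upstream of the gene start in GENCODE. The Atf3 and Fosl2 windows, and the Maff windows with a match, belong to starts downstream of theirs. Such matches describe the letters only.

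Genes around these factors were examined from lists of the pathway. Their counts are set beside the 9.09% of all genes called higher and 6.71% called lower. Among 24 other bZIP factors, 6 were called higher and 1 lower, 29.2% in all against 15.8% of all genes. Batf, a partner of JUN proteins in immune cells, was at 1.86, 1.90 and 3.43 CPM in control replicates and at 17.0, 22.6 and 38.6 CPM in LPS replicates (log2 fold change 3.44, edgeR adjusted p = 0.00647). Here LPS replicate 3 was the highest library, the reverse of Fosl1 and Maff. Batf2, which ran from 0.221 to 0.744 CPM among controls and from 2.27 to 7.90 CPM among LPS cultures, had its highest value in the same library (3.46, edgeR adjusted p = 0.0269). Its log2 fold change was 4.23 without control replicate 3 and 2.79 without LPS replicate 3, and leaving out control replicate 1, control replicate 2 or LPS replicate 2 ended its call (largest edgeR adjusted p 0.116). Cebpd and Cebpb, acute-phase regulators of the C/EBP family, had log2 increases of 2.31 and 1.31 (edgeR adjusted p = 0.00325 and 0.00711). Atf5, a stress-response factor, fell by 0.52 (edgeR adjusted p = 0.0401), and of the single libraries left out only control replicate 3 kept this call (edgeR adjusted p up to 0.147). Log2 fold changes of the 24 ran from -2.31, in a gene that was not called, to 3.46. The median over the 24 was 0.10.

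Among the partners of Egr1, Nab1, a corepressor of EGR factors, rose from 97.5 ± 4.56 CPM in controls to 173.8 ± 3.38 CPM with LPS (SD, n = 3), by 0.83 on the log2 scale (edgeR adjusted p = 0.00179). Nab2, the other corepressor, was at 97.1 ± 4.45 and 96.6 ± 9.44 CPM (SD, n = 3 each). Egr2, a further EGR factor, was at 4.11, 4.12 and 11.8 CPM in control and at 12.6, 14.9 and 29.8 CPM in LPS. Replicate 3 was the highest of each group, the opposite of Egr1, and the groups did not overlap. Egr2 was not called (log2 fold change 1.52, edgeR adjusted p = 0.121). Its log2 fold change was 2.23 without control replicate 3 and 1.04 without LPS replicate 3. It was called with the replicate block (edgeR adjusted p = 0.00379), with DESeq2 and without control replicate 3 (edgeR adjusted p = 0.0365). Egr3 was at 0.424 to 1.53 CPM in all 6 libraries and Egr4 had no counts in them.

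Of 24 other immediate-early genes, 4 were called higher and 20 were not called, with a median of 0.16. This share was 16.7%, against 15.8% of all genes called and 9.09% called higher. Ier3, a survival gene induced by NF-κB, rose from 25.7 ± 0.417 CPM to 366.4, 423.9 and 119.3 CPM in LPS replicates 1, 2 and 3 (log2 fold change 3.56, edgeR adjusted p = 0.00921). Csrnp1 and Btg1 rose by 1.26 and 0.98 (edgeR adjusted p = 0.00239 and 0.00238) and Klf6 by 0.56 (edgeR adjusted p = 0.0111). Without control replicate 1 or 2 the calls for Ier3 and Klf6 were lost, and that for Klf6 also without LPS replicate 2 (the largest edgeR adjusted p was 0.0708). Ier2, not called, averaged 25.8 ± 1.19 CPM without and 24.5 ± 2.01 CPM with LPS (SD, n = 3). With the replicate number as a block, 8 of these 24 genes passed, in a fit that called 30.3% of all genes.

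Upstream, 5 of 24 genes of the MAP kinase cascade were called higher and 0 lower, 20.8% against 15.8% of all genes called and 9.09% called higher, and the median was 0.25. Map3k8, which encodes TPL2, the kinase that links LPS receptors to ERK, rose from 9.46 ± 0.782 CPM in controls to 34.0 ± 3.75 CPM with LPS (SD, n = 3), by 1.85 on the log2 scale (edgeR adjusted p = 0.000883). Map2k1, which encodes the ERK kinase MEK1, rose by 1.13 (edgeR adjusted p = 0.00422). Map3k8 and Map2k1 kept their calls without any single library, unlike Mapk7 (0.39) and Map2k3 (0.34), whose edgeR adjusted p reached 0.135 and 0.184. Among the kinases at the end of the cascade, Mapk3 (ERK1), Mapk8 (JNK1) and Mapk14 (p38α) were not called, with log2 fold changes of -0.14, 0.34 and 0.39, although Mapk8 and Mapk14 were called with the replicate block. Mapk3 was called lower without scaling factors (-0.30, edgeR adjusted p = 0.0455). Without LPS replicate 3, Mapk8 was called (0.43, edgeR adjusted p = 0.0266) and Mapk14 was at 0.21. Of 6 genes for serum response factor and its cofactors, Elk3 rose by 0.59 (edgeR adjusted p = 0.00356), and Srf was at 0.13 (edgeR adjusted p = 0.356).

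Of 19 tested genes that textbooks list as AP-1 targets, 13 were called higher and 2 lower, against 9.09% and 6.71% of all genes, with a median of 1.21. Many of them are known to respond to NF-κB as well, and Dcn is also a mesenchymal marker. Mmp3, Mmp9 and Mmp13, matrix metalloproteinases, had log2 increases of 6.57, 6.07 and 5.65 (edgeR adjusted p = 0.00909, 0.00176 and 0.00310), and the chemokine gene Ccl2 by 5.59. For the metalloproteinases LPS replicate 3 was the lowest of the LPS cultures, as for Fosl1 and Maff: Mmp13 was at 645.5, 729.5 and 207.2 CPM in LPS replicates 1, 2 and 3 against 8.80 to 11.9 CPM in control. Plau fell by 1.74 and the cyclin gene Ccnd1 by 1.22 (edgeR adjusted p = 0.0291 and 0.0137). Leaving out control replicate 2 ended the calls for Mmp3, Plau and Ccnd1 (edgeR adjusted p = 0.0613, 0.0955 and 0.0720), and 6 of the 19 genes were then called, in a fit that called 2.44% of all genes higher and 0.720% lower. The call for Mmp3 also ended without control replicate 1, that for Plau without LPS replicates 1 or 2, and that for Ccnd1 without control replicate 1 or LPS replicates 1 or 2. The 19 had 9 calls without control replicate 1, LPS replicate 1 or LPS replicate 2, fits that called 3.03% to 3.98% of all genes higher and 1.04% to 1.44% lower. The 10 heat shock genes, which mark handling stress, summed to 2535, 2347 and 1927 CPM in control and to 3232, 2872 and 2312 CPM in LPS by replicate number, higher with LPS within each, and their median log2 fold change was 0.36. Their part in the other results was not tested. Of these 10, edgeR called 0, with 2 at an unadjusted p under 0.05. DESeq2 called 2 of the 10 (24.6% of all genes), limma-voom 0 (14.3% of all genes) and edgeR with the replicate block 8 (30.3% of all genes).

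**Figure D5:**
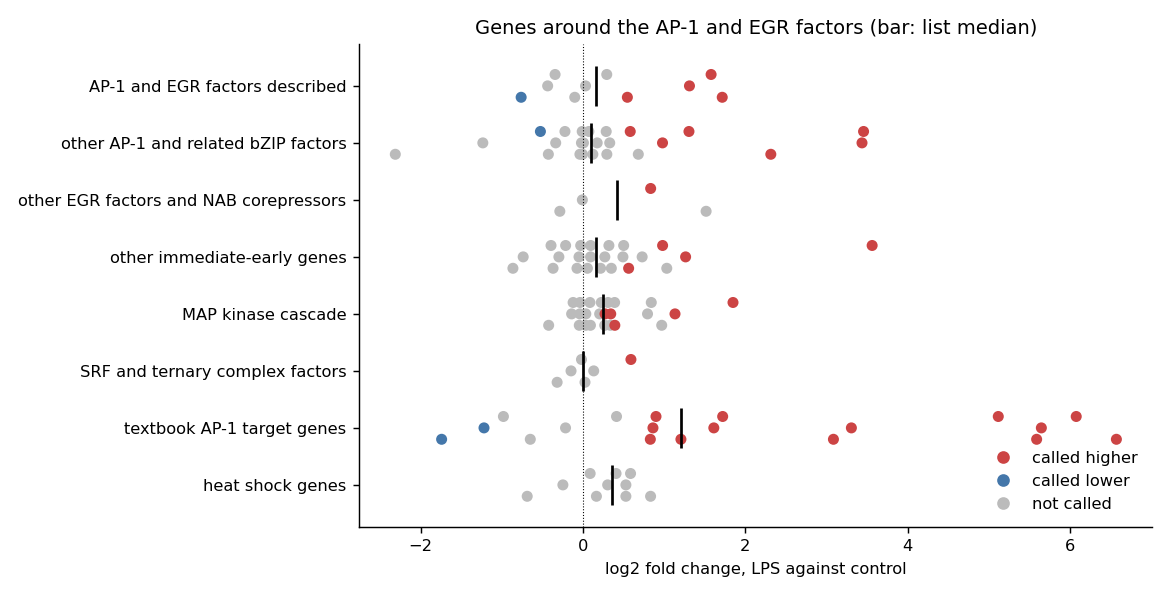
Log2 fold change of LPS against control (horizontal axis) of every tested gene in each list, red where called higher, blue where called lower and grey where not called, with a black bar at the list median. The medians are 0.16 for the 10 AP-1 and EGR factors and 1.21 for the AP-1 target genes.

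Finally, the genes whose profile over the 6 libraries lay nearest to that of a factor were listed, by root mean square difference of centred log2 CPM among 10332 genes with a mean log2 CPM of at least 3. For Junb they were Calcrl (0.0522), Ninj1 (0.0585) and Pim1 (0.0675), for Atf3 Ifi30 (0.0433), Pter (0.0487) and Osbpl1a (0.0529), and for Maff Tmem45a (0.0652), Cyp1b1 (0.0758) and Lama4 (0.0871). For Fos they were Fam53b (0.0416), Mpp1 (0.0544) and Cdk19 (0.0683), for Jun Snrpd1 (0.0298), Brap (0.0309) and Mon2 (0.0347), and for Egr1 Arhgef25 (0.0689), Usp11 (0.0693) and Osbpl5 (0.0693). The list is a description over 6 libraries, and how near the closest profiles of other genes lie was not tested.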

How the data were processed

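Poly(A) RNA was sequenced from 3 control and 3 LPS cultures. The authors deposited unnormalized whole-number counts for each gene. Per the submitters' processing notes, the authors used cutadapt 1.15, Bowtie2 2.3.3.1, STAR 2.5.2b (GRCm38), SAMtools 1.5 and featureCounts 1.5.3. The strand setting and the handling of multiply aligned reads are not given in the sources used here. A table of the whole series repeated the same 6 columns and was not used.

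Genes were filtered with filterByExpr of edgeR 4.0.16 (R 4.3.3, minimum count 10, minimum total 15), scaled by TMM and tested, two-sided, with the quasi-likelihood F-test with group as its 1 term. P-values were adjusted by Benjamini-Hochberg over the whole table. The SE was derived from the F statistic and the log2 fold change. The test was checked on simulated data. Coordinates and merged exon lengths came from GENCODE M21 (GRCm38), which held 98.7% of the identifiers. The 10 genes, the lists and the alternatives were chosen with earlier results of these data known. Named besides the 10 were up to 4 called genes per list and direction, genes of a role described, and the 3 nearest profiles of Fos, Jun, Junb, Atf3, Egr1 and Maff.

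Alternatives were relative log expression, upper-quartile or no factors, no filter, at least 10 counts in every library, DESeq2 1.42.0, limma-voom (limma 3.58.1), a replicate block and each library left out. Deviations from group means correlated by 0.513, 0.334 and 0.613 between control and LPS libraries numbered 1, 2 and 3, so the numbers were taken, from the data, to pair the cultures, although LPS replicate 2 correlated more with control replicate 1 (0.419). Intervals reflect the spread between cultures.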

Additional observations from a re-analysis of the deposited data

How the results depend on the processing

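Junb and Atf3 kept their direction and their calls under all 14 alternatives. The counts of all genes called, 1384 higher and 1022 lower, became 1050 and 1589 when scaled by upper quartile, 986 and 2054 when scaled by library size alone, 2079 and 1673 with DESeq2 and 2343 and 2273 with the replicate block. These scalings moved the median of all genes to -0.12 and -0.18 and the share of higher genes among the calls from 57.5% to 39.8% and 32.4%. Of the 10 factors, limma-voom called 1 higher instead of 4, and the replicate block called 2 lower instead of 1, Egr1 in addition. With upper-quartile factors, library size alone, no filter, DESeq2, limma-voom and the replicate block, the MAP kinase genes called were 3, 3, 2, 8, 3 and 10 instead of 5. Genes of serum response factor were 2 with upper-quartile factors, 3 with library size alone and 2 with the block instead of 1, and EGR factors and corepressors 2 with DESeq2 and 2 with the block instead of 1. The block raised the share of all genes called from 15.8% to 30.3%. With it, other bZIP factors numbered 12 instead of 7, other immediate-early genes 8 instead of 4 and heat shock genes 8 instead of 0, which were 2 with DESeq2.

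Leaving out single libraries gave from 379 to 1964 genes higher and from 112 to 1426 lower, from 1 to 5 of the 10 factors higher and from 1 to 2 lower. It gave from 3 to 10 other bZIP factors, from 1 to 2 EGR factors and corepressors, from 2 to 8 immediate-early genes, from 2 to 8 MAP kinase genes, from 6 to 15 AP-1 targets and from 0 to 2 heat shock genes. Genes near no change turned sign: Jun (-0.071 with upper-quartile factors, -0.12 with library size alone, -0.0062 to 0.13 without single libraries), Fosb (-0.17 to 0.029), Egr3 (-0.73 to 0.32), Nab2 (0.0075 with relative log expression and with DESeq2, -0.064 to 0.067 without single libraries) and Srf (-0.022 with library size alone). The shares of JUN and FOS family members kept their direction by count instead of per kilobase and without each replicate number, but by count the differences in the Fos, Fosl1 and Jund shares were -8.77, 4.97 and -4.19 percentage points instead of -19.3, 14.8 and -6.43. Counts were low for genes such as Fosb, with 20 to 36 counts per library, and Batf2, with 5 to 18 counts per control library. Apart from scaling, the cause of these shifts was not tested.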
